A study of Mus musculus with 32 samples.

Results

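A set of 8 genes of MHC class II antigen presentation were followed across 32 mouse spinal cord RNA-seq libraries. The genes were H2-Aa, H2-Ab1, H2-Eb1, Cd74, Ciita, H2-DMa, H2-DMb1 and H2-Oa, chosen by name, and their Ensembl identifiers were all found among the 45706 rows of the count table. All 8 passed the filter on low counts that kept 20015 genes for testing. The samples came from non-transgenic control mice and from mice with 12 copies of a CHMP2Bintron5 transgene, bred on a background that mixes FVB/N, C57BL/6 and DBA/2. The class II haplotypes of the animals are unknown, and reads of the polymorphic chain genes H2-Aa, H2-Ab1 and H2-Eb1 could map unequally between haplotypes, so their levels and ratios carry that limit, which was not tested. CHMP2B belongs to the ESCRT-III complex of endosomal sorting, and CHMP2Bintron5 is a C-terminally truncated variant found in a familial form of frontotemporal dementia. The age of 1.5 months had 6 control and 5 CHMP2Bintron5 libraries, that of 6 months had 5 and 4, and the oldest age, 10-12 months, had 6 of each. These numbers follow the sample labels. The series' design text counts 4 CHMP2Bintron5 samples at the youngest age and calls the oldest 12 months. No source used here gives the promoter of the transgene, the sex of the mice or any pooling, or says that samples came from separate animals. The p-values therefore measure the spread between these samples, which may be technical.

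MHC class II molecules are pairs of an alpha and a beta chain that carry peptides from endosomes and lysosomes to the cell surface, where CD4+ T cells read them. In the cord, microglia, border macrophages, dendritic cells and B cells are the usual sources of these transcripts, and microglia at rest make little. H2-Aa and H2-Ab1 encode the chains of I-A, and H2-Eb1 encodes the beta chain of I-E. Cd74, the invariant chain, blocks the peptide groove until proteases of the endosome trim it away. H2-DMa and H2-DMb1 encode chains of H2-M, which exchanges the remaining invariant chain fragment for peptide, and H2-Oa encodes a chain of H2-O, an inhibitor of H2-M. Ciita is the transactivator that switches these genes on, bound to factors that sit on the X and Y boxes of their promoters.

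In GRCm38, 6 of the 8 genes lie on chromosome 17 within 224 kb (34092340 to 34316674). Ciita is on chromosome 16 (10480059 to 10528418), and Cd74 is elsewhere. All 8 are annotated as protein-coding. The annotated span of H2-DMa overlaps Brd2 on the opposite strand, which averaged 205 CPM, and that of Ciita overlaps Dexi on the opposite strand, at 48.7 CPM. No source used here states the strand setting of the counting, so reads of these pairs may not be told apart. CPM is the count of a gene divided by the TMM-scaled size of its library in M counts.

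The RefSeq promoter table (GRCm38.p6) held H2-Aa, H2-Eb1, H2-DMa, H2-DMb1 and H2-Oa among the 8 genes. The 130 bases before the start site are shown for H2-Aa and H2-Eb1, and for H2-Ob, which encodes the other H2-O chain, as examples of the spacing of the boxes in an alpha chain, a beta chain and an H2-O gene. Capitals mark ATTGG, the core of the Y box, on either strand (CCAAT when read on the other), and GNAAC, a short match to the X box, where it precedes ATTGG on the strand of the gene.
H2-Aa, chr17:34287824-34287953 (minus strand): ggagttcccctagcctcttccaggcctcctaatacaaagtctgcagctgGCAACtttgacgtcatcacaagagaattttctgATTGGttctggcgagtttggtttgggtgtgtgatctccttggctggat
H2-Eb1, chr17:34305737-34305866 (plus strand): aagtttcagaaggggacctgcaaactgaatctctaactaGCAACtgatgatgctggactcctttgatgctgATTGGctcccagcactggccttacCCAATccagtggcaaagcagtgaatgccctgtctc
H2-Ob, chr17:34238775-34238904 (plus strand): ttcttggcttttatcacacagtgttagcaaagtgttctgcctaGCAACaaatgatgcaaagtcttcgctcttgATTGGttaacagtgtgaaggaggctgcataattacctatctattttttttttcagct
In H2-Aa, GCAAC began 81 bases and ATTGG 48 bases before the start site. The pair of GNAAC and ATTGG began 30 to 33 bases apart in 5 genes, 4 of them among the 8 (H2-Aa, H2-Eb1, H2-DMb1 and H2-Oa). The other was H2-Ob. GNAAC read GTAAC in H2-DMb1 and GCAAC in the rest. GNAAC placed 15 to 45 bases before ATTGG on either strand, a spacing chosen after the windows were seen, was present in 4.15% of 32851 mouse promoter windows of 250 bases. ATTGG alone, searched on both strands, was in 33.8% of them. The longer consensus of the X1 box, searched on both strands, was in 0.0487%, and of these genes it was found in H2-DMb1, as CCTAGTAACTGATG. The interferon site TTCNNNGAA was in 7.02% of windows and in none of the windows of the 5 genes. Of the H2-DMa windows, neither held the pair. A match describes letters and is no evidence that a factor binds.

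Depth ran from 28.4 to 85.3 M counts per library. All 10 spinal cord marker genes, among them Mbp, Gfap, Chat and Hoxc8, had counts in all 32 libraries, with a summed level of 15300 to 30000 CPM. CHMP2Bintron5 replicates 2 and 3 at 6 months carried transcripts of sensory ganglion neurons, with Avil up to 146 CPM. Skeletal muscle actin, Acta1, exceeded 30 CPM in 6 libraries spread over 5 groups. In controls they were replicate 2 at 1.5 months and replicates 4 and 5 at 6 months. In CHMP2Bintron5 they were replicate 3 at 1.5 months, 1 at 6 months and 3 at 10-12 months. Fits without them thus also leave out CHMP2Bintron5 replicate 1 at 6 months, and are not separate from fits without that library. Xist stood at 4.81 CPM in CHMP2Bintron5 replicate 4 at 6 months and at 760 CPM or more elsewhere. Values without these libraries are given mainly where they end a call or move a value by more than 1.5-fold, and not for every gene and comparison. In bulk tissue, fewer cells of a type and less RNA per cell cannot be told apart.

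Per kilobase of exon, Cd74 was the most abundant of the 8 transcripts, at 30.8 ± 11.9 CPM per kb (SD, n = 32). H2-Aa followed at 6.49 ± 2.46, H2-Ab1 at 5.60 ± 2.40 and H2-DMa at 4.22 ± 0.888 CPM per kb. H2-DMb1 stood at 2.25 ± 0.613 and H2-Eb1 at 0.745 ± 0.184 CPM per kb. The lowest were H2-Oa, at 0.241 ± 0.124, and Ciita, at 0.0973 ± 0.0697 CPM per kb. With the longest transcript as the length, H2-Ab1 (11.9 CPM per kb) stood above H2-Aa (7.64 CPM per kb), so the order of these chains depends on the length used.

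CHMP2Bintron5 at 6 months had the highest mean of the 6 groups for all 8 genes, and this held with replicates 2 and 3 of that group left out, or replicate 4. Without replicate 1, or without the libraries over 30 CPM of Acta1, it held for 6 of 8, the exceptions being H2-DMb1 and H2-Oa. Control at 1.5 months had the lowest mean for 4 of the 8. For every gene, each group overlapped the next in the order of means, in 40 of 40 neighbouring pairs. Neighbours in a sorted order are likely to overlap and no share over all genes was computed, so this is no test of the order. Some groups farther apart did not overlap. In CHMP2Bintron5 these were Ciita between 6 and 1.5 months (5.7% of all genes) and H2-DMa between 10-12 and 6 months (0.794% of all genes). The plot of levels by library shows this overlap.

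**Figure D1:**
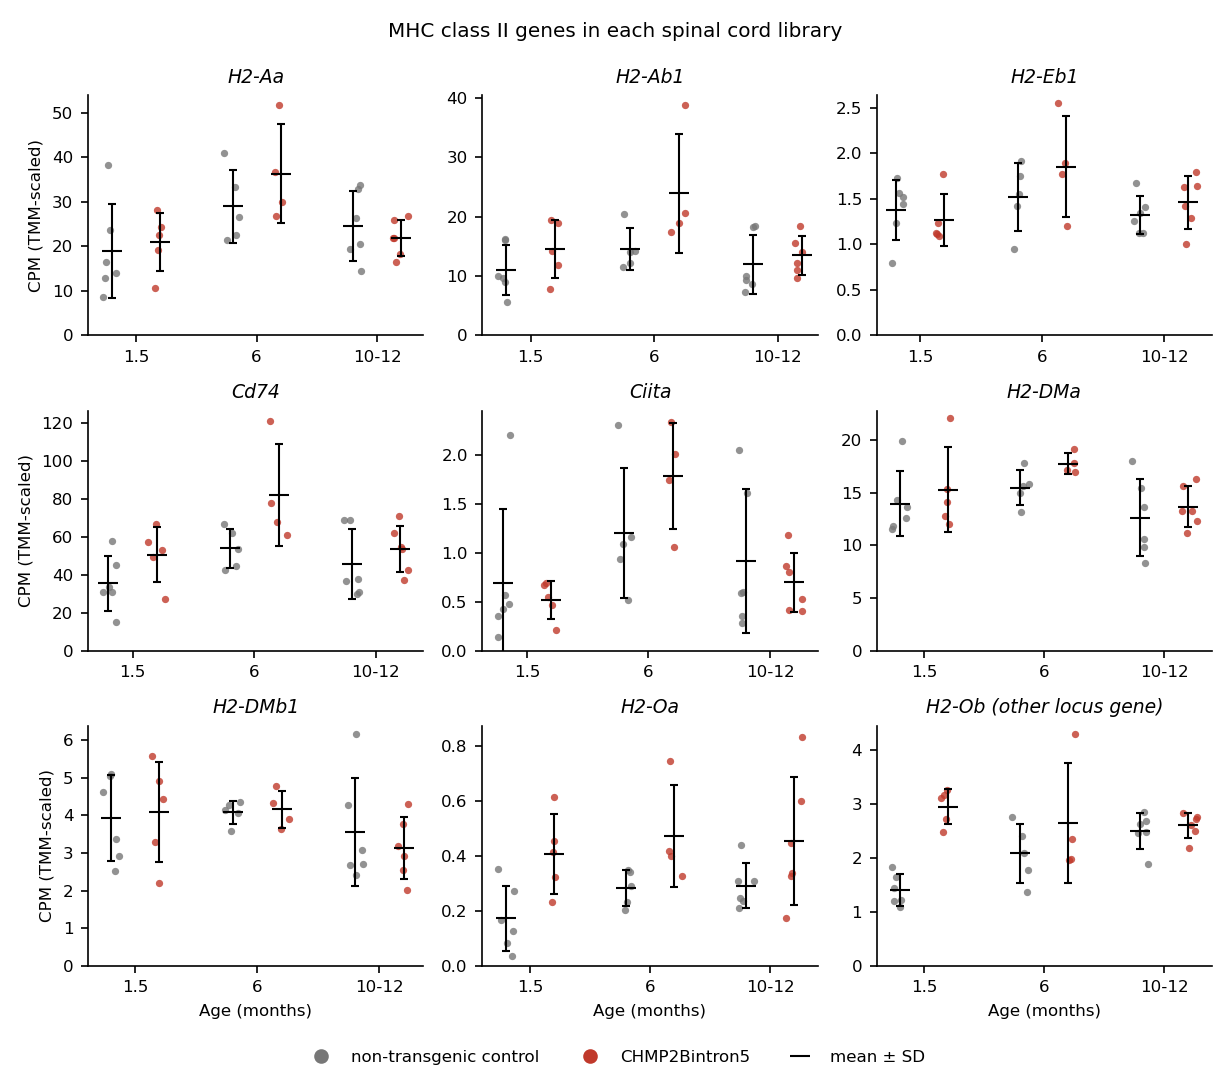
CPM (TMM-scaled, linear axis from 0) of the 8 class II genes and H2-Ob in each library, by age in months, with control in grey and CHMP2Bintron5 in red; black bars give mean ± SD, and the SD bar of Ciita in controls at 1.5 months is drawn only down to 0. CHMP2Bintron5 at 6 months has the highest mean in each of the 8 genes but overlaps its neighbours, while H2-Ob separates the genotypes at 1.5 months.

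The first question is how the genes differ with the transgene at each age. None of the 8 was called at any age by edgeR's quasi-likelihood test (adjusted p under 0.05 over all genes tested). The percentage of all genes called was 3.73 at 1.5 months, 11.4 at 6 months and 18.6 at 10-12 months. At an unadjusted p under 0.05, 1 of 8 passed at 1.5 months (H2-Oa), 1 at 6 months (H2-Ab1) and 0 in the oldest group. DESeq2 called 1, 0 and 0 of them, and its share of all genes is not given here for any comparison. At that unadjusted level 16.8%, 27.1% and 34.1% of all genes passed. For none of the 8 were the genotypes without overlap at any age, while 3.44%, 13.1% and 7.04% of all genes had groups that did not overlap. The log2 difference was positive for 6, 8 and 5 of the 8 genes, with a median of 0.13, 0.44 and 0.13 against 0.00, 0.02 and 0.02 over all genes tested. The plot of genotype effects gives each gene with its interval.

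**Figure D2:**
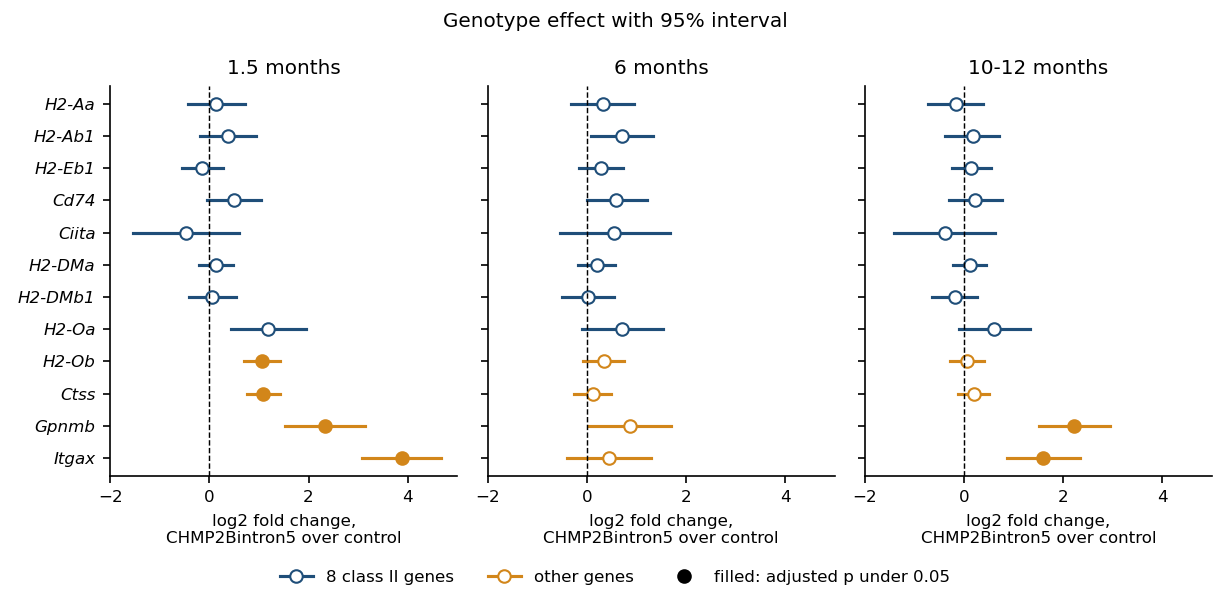
Log2 fold change of CHMP2Bintron5 over control with its 95% interval at each age, for the 8 class II genes (blue) and for H2-Ob, Ctss, Gpnmb and Itgax (orange); filled points have an adjusted p under 0.05. All 8 blue points are open at each age, and the 4 orange points are filled at 1.5 months.

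Among the chains of I-A and I-E, H2-Aa had 10.7, 28.3, 19.2, 24.3 and 22.5 CPM in the 5 CHMP2Bintron5 libraries at 1.5 months. The 6 controls of that age ran from 8.72 through a median of 15.3 to 38.2 CPM. The groups overlapped throughout, and the log2 difference was 0.14 ± 0.28 (SE; adjusted p = 0.831, edgeR). At 6 months H2-Aa had 51.8, 29.9, 36.8 and 26.8 CPM with the transgene and 22.6, 21.5, 26.6, 41.1 and 33.3 CPM in controls. At 10-12 months the range was 16.5 to 26.9 CPM, median 21.9, against 14.4 to 33.8 CPM, median 23.4. The 6 month difference was 0.32 (-0.32 to 0.96), and 0.10 without CHMP2Bintron5 replicate 1. The highest H2-Aa library was CHMP2Bintron5 replicate 1 at 6 months, and the lowest control replicate 3 at 1.5 months, also the shallowest library.

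H2-Ab1 had the lowest unadjusted p of the 8 at 6 months. Its 4 CHMP2Bintron5 libraries held 38.8, 18.9, 20.6 and 17.5 CPM, and its 5 controls 12.2, 11.5, 14.1, 20.5 and 14.3 CPM. Control replicate 4 reached into the transgenic range, and CHMP2Bintron5 replicate 1 lay far above the rest. The log2 difference was 0.72 ± 0.31 (SE; 95% interval 0.09 to 1.34; adjusted p = 0.126, edgeR). It was 0.38 without CHMP2Bintron5 replicate 1, 0.84 without replicate 4, 0.95 without replicates 2 and 3, and 0.59 without the libraries over 30 CPM of Acta1. Corrected for GC content and length, it was 0.53, and 0.24 and -0.05 at the other ages. None of these was called. At 1.5 months it was 0.38 (-0.19 to 0.95) and at 10-12 months 0.17 (-0.38 to 0.71). H2-Eb1 differed by -0.14, 0.29 and 0.14 at the 3 ages, with adjusted p of 0.747, 0.414 and 0.624 (edgeR), and its groups overlapped at each age. The value at 6 months was 0.10 without CHMP2Bintron5 replicate 1 and 0.54 without replicates 2 and 3.

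Cd74 lies on chromosome 18 (60803848 to 60812652). At 1.5 months it had 27.2, 57, 49.1, 66.5 and 52.9 CPM with the transgene. Controls of that age ran from 15 through a median of 32.4 to 57.7 CPM. All but 1 of the transgenic libraries lay above the control median, yet the ranges overlapped, and the log2 difference was 0.50 (95% interval -0.04 to 1.05; adjusted p = 0.346, edgeR). At 6 months Cd74 had 121, 67.5, 77.9 and 60.9 CPM against 42.4, 44.7, 53.5, 66.4 and 61.9 CPM. The difference was 0.60 (0.00 to 1.21; adjusted p = 0.186, edgeR), and 0.35 without CHMP2Bintron5 replicate 1, 0.72 without replicate 4 or 0.75 without replicates 2 and 3. At 10-12 months it was 0.23 (-0.30 to 0.76; adjusted p = 0.547, edgeR), with 37.4 to 70.6 CPM against 29.6 to 68.9 CPM. Corrected for GC content and length, the 3 differences of Cd74 were 0.32, 0.40 and 0.01.

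Ciita was low and uneven. In controls at 1.5 months, 5 of 6 libraries had 0.144 to 0.567 CPM and replicate 4 had 2.21 CPM. The 5 CHMP2Bintron5 libraries of that age had 0.207, 0.463, 0.545, 0.689 and 0.672 CPM. The log2 difference was -0.47 (95% interval -1.55 to 0.60; adjusted p = 0.67, edgeR), and 0.34 without control replicate 4. It was 0.56 (-0.54 to 1.67) at 6 months and -0.39 (-1.41 to 0.63) at 10-12 months. Without the libraries over 30 CPM of Acta1 the 6 month value was 0.28. The intervals of Ciita were the widest of the 8 at each age. Counts per library ran from 4 to 132.

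For the chains of H2-M, values of the genotypes differed little. H2-DMa differed by 0.13, 0.20 and 0.11 (log2) at the 3 ages, and its 95% intervals stayed between -0.22 and 0.58. H2-DMb1 differed by 0.06, 0.03 and -0.19, within -0.65 and 0.56. H2-DMa at 6 months had 19.1, 17.1, 17 and 17.8 CPM with the transgene against 17.8, 15, 13.2, 15.6 and 15.8 CPM in controls. A correction for GC content turned the sign of H2-DMb1 at 1.5 and 6 months and of H2-DMa at 10-12 months.

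H2-Oa had the lowest p of the 8 at 1.5 months. It had 0.413, 0.231, 0.454, 0.615 and 0.324 CPM in CHMP2Bintron5 libraries, against 0.036 to 0.352 CPM, median 0.146, in controls. Controls 2 and 6 overlapped the transgenic range. The log2 difference was 1.19 ± 0.37 (SE; 95% interval 0.43 to 1.94), and it missed the threshold (adjusted p = 0.0683, edgeR). It passed with a correction for GC content and length (1.07, adjusted p = 0.0362, edgeR). That fit called 7.61% of all genes at this age, against 3.73% without the correction. H2-Oa also passed in DESeq2 (1.20, adjusted p = 0.0345). Of 11 fits that left out 1 library, it passed in 3. These were without control replicate 2 (0.0452) or 6 (0.0221), or CHMP2Bintron5 replicate 2 (0.0451), as adjusted p from edgeR. In the others it missed the threshold, with adjusted p up to 0.232 (edgeR). Controls 2 and 6 were the overlapping controls, and CHMP2Bintron5 replicate 2 was the lowest of its group. Leaving them out thus widened the gap by construction. Counts of H2-Oa at 1.5 months were 1 to 18 in controls and 14 to 33 with the transgene, so counting error is a large part of the spread. At 6 and 10-12 months the difference was 0.72 (-0.09 to 1.53; 0.42 without CHMP2Bintron5 replicate 1 and 0.41 without the libraries over 30 CPM of Acta1) and 0.61 (-0.10 to 1.32).

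H2-Ob, the other chain of H2-O and one of 4 further class II genes of the locus that were tested, was higher with the transgene at 1.5 months. Its CHMP2Bintron5 libraries had 3.25, 3.16, 3.10, 2.72 and 2.48 CPM, and controls 1.08 to 1.83 CPM, median 1.33. The groups did not overlap, as was the case for 3.44% of all genes. Means were 2.94 ± 0.327 CPM (SD, n = 5) and 1.40 ± 0.291 CPM in controls (SD, n = 6), and the fit gave a 2.08-fold higher level (adjusted p = 0.00034, edgeR). The call held in every alternative run. H2-Ob was not called at 6 months (0.34, -0.07 to 0.75) or 10-12 months (0.06, -0.29 to 0.41). The 6 month value was 0.01 without CHMP2Bintron5 replicate 1, 0.67 without replicates 2 and 3, and 0.09 without the libraries over 30 CPM of Acta1. The change of the effect from 1.5 to 10-12 months was -1.0 ± 0.25 (SE), with an adjusted p of 0.281 (edgeR), where 0.00999% of all genes were called. Of the other 3 locus genes, H2-DMb2, H2-Eb2 and H2-Ea-ps, none was called between genotypes at any age. H2-Ea-ps, a pseudogene in some strains and the I-E alpha chain in others, differed by -0.51, 0.30 and -0.34. Its 6 month value ran from 0.12 to 0.54 over 9 alternative settings.

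No difference between the genotype effects of any 2 ages was called for the 8 genes. Of all genes, 0.155% were called between 6 and 1.5 months, 0.00999% between 10-12 and 1.5 months and 0.005% between 10-12 and 6 months. None of the 8 had an unadjusted p under 0.05 there in edgeR or DESeq2, where 8.03%, 5.61% and 2.93% of all genes had one in edgeR, so a different effect at 6 months than at 1.5 months is not shown.

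With age, none of the 8 was called in either genotype by edgeR. In controls 10.3% of all genes were called between 6 and 1.5 months, 4.18% between 10-12 and 1.5 months and 0% between 10-12 and 6 months. In CHMP2Bintron5 the percentages were 4.79, 6.59 and 0.345. DESeq2 called 1 of 8, in CHMP2Bintron5 between 6 and 1.5 months. At an unadjusted p under 0.05, 28.2%, 17.9% and 4.77% of all genes passed at the 3 steps in controls. Of the 8, 2 passed from 1.5 to 6 months, H2-Aa (0.61, adjusted p = 0.158, edgeR) and Cd74 (0.59, adjusted p = 0.144, edgeR). Across the same step in CHMP2Bintron5, 5 of 8 passed unadjusted, against 25.2% of all genes, and 0 of 8 between 10-12 and 1.5 months, against 24.9%. They were H2-Aa (0.79), H2-Ab1 (0.72), H2-Eb1 (0.55), Cd74 (0.69) and Ciita (1.79), with adjusted p of 0.0582 to 0.15 in edgeR. H2-Aa, H2-Ab1, Cd74 and Ciita correlated at 0.74 to 0.95 over 32 libraries, so these passes are not separate results. At that step, leaving out 1 library gave 0.57 to 0.91 for H2-Aa, 0.39 to 0.85 for H2-Ab1 and 0.36 to 0.70 for H2-Eb1. It gave 0.44 to 0.81 for Cd74 and 1.59 to 1.98 for Ciita. Without the libraries over 30 CPM of Acta1 1 of 8 passed unadjusted, and without replicates 2 and 3 at 6 months 5 did. The share of all genes at that level in these reduced fits is not given, so these counts are not read as a result. Corrected for GC content and length, 1 of 8 passed unadjusted at each of the 3 steps in controls. In CHMP2Bintron5 3 passed from 1.5 to 6 months, 2 between 10-12 and 1.5 months and 5 between 10-12 and 6 months. The share of all genes at that unadjusted level is not given for the corrected fit. By adjusted p it called 17.6%, 10.3% and 0% of all genes at these steps in controls. In CHMP2Bintron5 it called 7.18%, 9.59% and 0.525%, and none of the 8 in either genotype. From 6 to 10-12 months in CHMP2Bintron5, 5 passed unadjusted in the other direction, among 5.07% of all genes, with adjusted p of at least 0.531 (edgeR). Of these, H2-DMa did not overlap between the ages, nor did 0.794% of all genes. These 2 steps share the 6 month libraries, which include the pair with sensory ganglion transcripts.

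Ciita in CHMP2Bintron5 stood at 2.34, 1.75, 2.01 and 1.06 CPM at 6 months, above all 5 libraries at 1.5 months, where groups did not overlap for 5.7% of all genes. DESeq2 called it (1.77, adjusted p = 0.0247). Control replicate 4 at 1.5 months decided calls in controls. Without it, H2-Aa (0.93, adjusted p = 0.0278, edgeR) and Ciita were called between 6 and 1.5 months, 2 genes in all. Without CHMP2Bintron5 replicate 4 at 1.5 months, H2-Eb1 (0.69, adjusted p = 0.0314, edgeR) and Ciita (1.90, adjusted p = 0.0295, edgeR) were called between 6 and 1.5 months. H2-Ea-ps was called for that step in CHMP2Bintron5 (1.46, adjusted p = 0.0247, edgeR), but not without replicates 2 and 3 at 6 months (1.26, adjusted p = 0.269). H2-Ob was called in controls between 10-12 and 1.5 months (0.82, adjusted p = 0.00441, edgeR).

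Within groups, the 8 genes varied more than most. The biological coefficient of variation of edgeR, the spread left after counting error, was 32.5% for H2-Aa, 31.9% for H2-Ab1 and 30.8% for Cd74. Over all genes tested its median was 16%. For Ciita it was 56.6%, a value that 2.33% of genes exceeded. H2-DMa (19.4%) and H2-Eb1 (20.6%) were nearer to the median.

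This variation was shared by some members and not by others. Over 32 libraries, as a description with no test, log2 CPM of H2-Ab1 and Cd74 correlated at r = 0.95 (rho = 0.94), H2-Aa and Cd74 at 0.90 (rho = 0.88) and H2-Aa and H2-Ab1 at 0.88 (rho = 0.86). Without the 2 libraries farthest from the median of the first gene, the first pair gave 0.94 and the second 0.85. Ciita followed Cd74 at 0.81 (rho = 0.78). With group means subtracted, these values were 0.96, 0.92, 0.91 and 0.81. The H2-M chains correlated with each other at 0.74 but with H2-Aa at 0.36 (H2-DMa) and 0.30 (H2-DMb1). H2-DMb1 and H2-Oa correlated at 0.07. All these points share library depth and base composition.

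**Figure D3:**
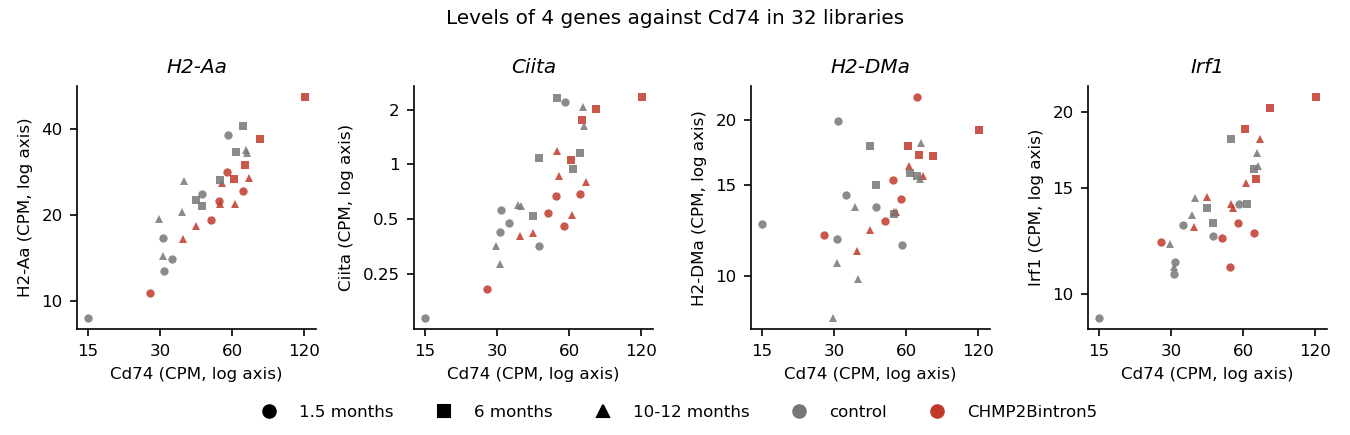
H2-Aa, Ciita, H2-DMa and Irf1 against Cd74 in 32 libraries (CPM, log axes), with control in grey and CHMP2Bintron5 in red, and the shape giving age. H2-Aa lies close to a line (r = 0.90), and H2-DMa spreads widely (r = 0.57).

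The genes most like H2-Aa, H2-Ab1, H2-Eb1 and Cd74 were ranked by Pearson correlation with the mean of their z-scored log2 CPM. Over 32 libraries the 10 highest were Irf1, Psmb8, Tap1, Psmb9, Ltb, H2-K1, Myo1g, Rgs14, H2-Q6 and Gsdmd, at 0.70 to 0.81. Irf1 is an interferon-induced transcription factor (r = 0.81, rho = 0.78, and 0.71 without the 2 farthest libraries). Psmb8 and Psmb9 are immunoproteasome subunits, Tap1 a peptide transporter of class I presentation, and H2-K1 and H2-Q6 class I chains. With group means subtracted the 10 were Psmb8, Themis2, Irf1, Plbd1, Vav1, Ncf1, Igha, Csf1r, Psmb9 and Ltb, at 0.69 to 0.77, and 4 genes were on both lists. Irf1 itself was not called between genotypes at 1.5 months (0.05), 6 months (0.33) or 10-12 months (0.07).

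Ratios of 2 members within a library do not depend on its depth, and 6 such ratios were computed, chosen with results known. The ratio of Cd74 to H2-Aa ran from 2.12 to 2.33 in CHMP2Bintron5 at 6 months, against 1.62 to 2.08 in controls, without overlap. At 10-12 months it was 2.1 to 2.82 against 1.43 to 2.14, with 5 of 6 transgenic libraries above every control. At 1.5 months it was 2.02 to 2.74 against 1.51 to 2.42, with 3 of 5 above every control. H2-Ab1 over H2-Aa also did not overlap at 6 months, at 0.561 to 0.749 against 0.430 to 0.541. It had 1 of 5 transgenic libraries above every control at 1.5 months and 5 of 6 at 10-12 months. The other 4 ratios overlapped between genotypes at each age. Of single genes, 13.1% did not overlap at 6 months, and the share among other gene pairs was not computed. The GC content of the longest transcript was 46.5% for H2-Aa, 56.6% for Cd74 and 57.3% for H2-Ab1. After a correction for GC content and length, the log2 gap in genotype effect between Cd74 and H2-Aa went from 0.37, 0.28 and 0.40 at the 3 ages to 0.10, 0.02 and 0.09. Between H2-Ab1 and H2-Aa it went from 0.24, 0.40 and 0.33 to 0.02, 0.15 and 0.02. These gaps were not tested.

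**Figure D4:**
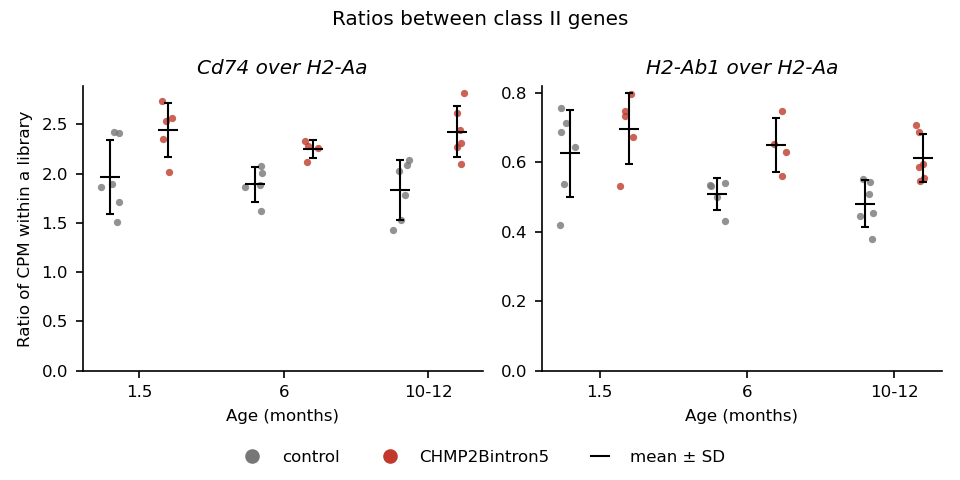
Ratios of CPM within a library, Cd74 over H2-Aa and H2-Ab1 over H2-Aa, by age in months, with control in grey, CHMP2Bintron5 in red and black bars for mean ± SD; the axis starts at 0. At 6 months the CHMP2Bintron5 ratios lie above every control, at 2.12 to 2.33 for Cd74 over H2-Aa. A correction for GC content and length took the log2 gap in genotype effect at that age from 0.28 to 0.02 for Cd74. For H2-Ab1 over H2-Aa the gap went from 0.40 to 0.15.

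Genes that prepare peptides and the invariant chain were read beside the 8. Over all genes tested, 1.76% were called higher and 1.97% lower with the transgene at 1.5 months, 5.68% and 5.68% at 6 months, and 8.24% and 10.4% at 10-12 months. Of 8 such proteases and helpers, 3 rose with the transgene at 1.5 months. Ctss, the cathepsin that trims the invariant chain, averaged 95.9 ± 13.1 CPM with the transgene (SD, n = 5) and 45.1 ± 8.06 CPM without it (SD, n = 6), a log2 change of 1.09 (adjusted p = 5.84e-05, edgeR). Ctsd rose by 0.69 and Ctsh by 0.57. At 6 months only Ctsl of the list rose (0.42), and it was not called without CHMP2Bintron5 replicates 2 and 3 (0.06, adjusted p = 0.739, edgeR). At 10-12 months Ctsd rose (0.27) and Sppl2a, which cleaves the invariant chain remnant in the membrane, fell by 0.42. Ctss was not called at 6 months (0.12) or 10-12 months (0.19). The 6 month value of Ctss was 0.32 without CHMP2Bintron5 replicates 2 and 3, and -0.15 without replicate 1. The list's median was 0.22 at 1.5 months, against 0.00 over all genes.

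Of the 7 factors that bind class II promoters, none was called at 1.5 months, Nfyc rose at 6 months (0.21) and Rfx5 at 10-12 months (0.19). Nfyc was not called without CHMP2Bintron5 replicates 2 and 3 (adjusted p = 0.0741), 1 (0.0523) or 4 (0.225) at that age, nor Rfx5 without the libraries over 30 CPM of Acta1 (0.096), as adjusted p from edgeR. Of 8 tested genes of class II turnover and co-stimulation, Icosl, the ligand of ICOS on T cells, rose at all 3 ages (0.52, 0.56 and 0.60). Without the libraries over 30 CPM of Acta1, Icosl missed the threshold at 6 months (0.46, adjusted p = 0.082, edgeR). Cd86 rose at 1.5 months (0.67), but missed it without those libraries (0.58, adjusted p = 0.0565, edgeR). March1, a ubiquitin ligase that removes class II from the surface, fell by 0.62 at 6 months and by 0.52 at 10-12 months. The 6 month call was lost without CHMP2Bintron5 replicates 2 and 3 (-0.52, adjusted p = 0.165, edgeR), replicate 4 (-0.56) or the libraries over 30 CPM of Acta1 (-0.68).

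Interferon gamma is the classical inducer of Ciita. Ifng was between 0 and 0.128 CPM, with 0 counts in 7 of 32 libraries. Of 19 tested genes of its pathway, 2 rose at 1.5 months, Irf8 (1.00) and Ifngr1 (0.19). Socs1, a feedback inhibitor of the pathway, rose at 6 months (adjusted p = 0.041, edgeR), a call lost without CHMP2Bintron5 replicates 2 and 3 (0.103), replicate 4 (0.161) or the libraries over 30 CPM of Acta1 (0.24). At 10-12 months Irf8 rose (0.55), while 4 fell: Iigp1 (-1.21), Gbp3 (-0.92), Gbp5 (-0.71) and Gbp7 (-0.67), GTPases induced by interferon. Without the libraries over 30 CPM of Acta1, Gbp3 kept its call, and Iigp1, Gbp5, Gbp7 and, at 1.5 months, Ifngr1 did not.

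Microglial genes were called at each age. Of 20 markers of disease-associated microglia, 15 rose at 1.5 months, with a median of 1.16. Itgax, an integrin chain, averaged 0.531 ± 0.191 CPM in controls (SD, n = 6) and 8.03 ± 3.22 CPM with the transgene (SD, n = 5), a log2 change of 3.88 (adjusted p = 7.86e-08, edgeR). Cst7 (3.14), Gpnmb (2.33) and Clec7a (2.26) rose with it. At 6 months 3 rose and 1 fell, and at 10-12 months 10 rose and 2 fell. Of 14 homeostatic microglia markers, 5 rose at 1.5 months, 3 fell at 6 months, P2ry12 among them (-0.54), and 1 rose at 10-12 months. Without CHMP2Bintron5 replicates 2 and 3, 1 homeostatic marker fell at 6 months, and without replicate 4 or without the libraries over 30 CPM of Acta1 none did. The disease-associated markers that rose at 6 months were then 2, 1 and 1. The summed level of the disease-associated list was 1770 to 2840 CPM against 1090 to 1560 CPM at 1.5 months, and the part of cell number in it was not tested.

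Markers of other immune cells, among them T cells, which read class II, were mostly not called. None of 12 perivascular and meningeal macrophage markers and none of 14 T cell markers was called by edgeR at any age, except that 1 T cell marker of 13 rose at 10-12 months without the libraries over 30 CPM of Acta1. At an unadjusted p under 0.05, 0, 1 and 2 of the macrophage markers passed at the 3 ages, and 2, 1 and 3 of the T cell markers. Mrc1 (-0.24, -0.50 and -0.21), Ccr2 (-0.50, -0.01 and -0.53), Ms4a1 (-0.34, -0.02 and -0.08) and Cd3e (-0.41, 0.53 and 0.63) were not called. Ccr2 is 1 of 11 tested monocyte markers. Without the libraries over 30 CPM of Acta1, 1 of the 11 rose at each age and none fell. The medians of the list were then -0.22, -0.15 and -0.40. The share of all genes called in that fit is not given. Of 12 tested dendritic cell markers, Batf3 rose at all 3 ages (by 1.00 to 1.35), with the 6 month call lost in each of the 4 fits that left out libraries (0.78 to 1.04). Flt3 fell by 0.22 at 1.5 months, a call lost without the libraries over 30 CPM of Acta1 (adjusted p = 0.147, edgeR). It ran from 29.2 to 39.2 CPM over all 32 libraries, and which cells it came from was not tested. Ccr7 was at most 0.298 CPM. Of 13 B and plasma cell markers, Blnk (0.91) and Cd22 (1.02) rose at 1.5 months, the only 2 with a positive difference, and the median of the list was -0.28. Cd22 lost its call at that age without the libraries over 30 CPM of Acta1 (0.87, adjusted p = 0.149, edgeR). The summed list was 35.4 to 81.6 CPM against 81 to 116 CPM in controls. At 10-12 months Cd22 rose (0.86) and Ighm fell by 1.32. With group means subtracted, the summed T cell markers correlated with the mean of H2-Aa, H2-Ab1, H2-Eb1 and Cd74 at r = 0.70 (rho = 0.63, n = 32). For homeostatic microglia it was 0.46, for disease-associated microglia 0.37, for B and plasma cells 0.32 and for dendritic cells 0.24. For monocytes it was 0.04 and for perivascular macrophages -0.01. The T cell markers summed to 4.43 to 13.9 CPM, and Cd3e to at most 0.403 CPM. Whether these cells account for the variation of the class II genes was not tested.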

How the data were processed

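RNA of 32 spinal cord samples was sequenced from stranded poly(A) libraries, per the labels' protocols. Per the submitters' processing notes, the authors used bcl2fastq 2.17.1.14, TopHat2 2.0.14, Bowtie2 2.1.0 and HTSeq 0.6.1 on mm10, and deposited raw read counts per gene. No source used here gives the annotation release. Symbols came from GENCODE M21 and matched 45143 of 45706 identifiers. Counts were filtered with filterByExpr (minimum count 10, minimum total 15), scaled with TMM and fitted in edgeR 4.0.16 with 1 quasi-likelihood term per genotype and age over all 32 libraries. There were 12 comparisons, two-sided, with Benjamini-Hochberg adjustment over 20015 genes. No libraries were duplicates: the chi-square per degree of freedom was at least 11.5 in 71 replicate pairs. Correlations used log2 CPM with a prior count of 2. The fit was tested on simulated data.

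The members and gene lists were chosen with earlier results of these data known. Genes named beside the 8 were, per list and direction, at most 4 called genes by size, a set of defining genes whether called or not (some are not reported here), and the 10 genes most like the members on each scale, with a mean of at least 0.5 CPM. Alternatives were DESeq2 1.42.0 and its size factors, no filter, only the groups compared, offsets for GC content and length, a replicate block, and leaving out libraries. For the gene lists, the fits without libraries were added after seeing the data.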

Additional observations from a re-analysis of the deposited data

Results flagged for a closer look

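In 4 of 48 combinations of group and gene, 1 library lay far from the others of its group. Chance gives about 1 in 20 if values are normally distributed and the genes independent. These genes correlate with each other, so 4 of 48 is not read against that rate. H2-Ab1 in CHMP2Bintron5 at 6 months was 38.8 CPM in replicate 1, and the next library had 20.6 CPM. Ciita in controls at 1.5 months was 2.21 CPM in replicate 4, and the next had 0.567 CPM. H2-Eb1 in CHMP2Bintron5 at 1.5 months was 1.77 CPM in replicate 4, and the next had 1.24 CPM. H2-DMa in controls at 1.5 months was 19.9 CPM in replicate 6, and the next had 14.3 CPM.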

How the results depend on the processing

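At 1.5 months, 1 of the 8 genes, H2-Oa, was called between genotypes with the GC content and length correction, with the replicate block (1.36, adjusted p = 0.0372, edgeR), with both together (1.20, adjusted p = 0.0211) and in DESeq2. With the GC content and length correction 7.61% of all genes were called at that age, against 3.73% without it. Leaving out 1 library gave 0 to 1 calls. Deviations of same-numbered libraries from their group means correlated between -0.83 and 0.83, and replicate 3 gave 0.68, -0.04 and 0.83 at the 3 ages. With so few libraries per group these values cannot settle whether replicate numbers pair the samples. The runs with the replicate block therefore rest on numbers whose meaning is not known here. Between 6 and 1.5 months in controls, 1 gene was called with the replicate block and GC correction together (H2-Aa, 0.78, adjusted p = 0.0404), and 0 to 2 when leaving out 1 library. In CHMP2Bintron5 for that step DESeq2 called 1, and leaving out 1 library gave 0 to 2. H2-Ob in controls at that step (0.55, adjusted p = 0.0494) lost its call in 8 of 11 such fits, and H2-Ea-ps in CHMP2Bintron5 in 4 of 9. The difference of the H2-Ob genotype effect between 6 and 1.5 months was called (-1.05, adjusted p = 0.0269, edgeR) without CHMP2Bintron5 replicate 1 at 6 months. The cause was not tested.

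With the GC correction, signs turned for H2-DMb1 at 1.5 months (-0.03) and 6 months (-0.10), and for H2-Ab1 (-0.05) and H2-DMa (-0.03) at 10-12 months. With the block added they were -0.11 for H2-DMb1 at 6 months, and -0.03 and -0.01 for H2-Ab1 and H2-DMa at 10-12 months. Leaving out 1 library turned signs within these ranges. At 1.5 months they were 0.00 to 0.46 for H2-Aa, -0.65 to 0.34 for Ciita, -0.08 to 0.22 for H2-DMb1 and -0.04 to 0.26 for H2-DMa. At 6 months H2-DMb1 ran from -0.04 to 0.08. At 10-12 months the ranges were -0.30 to 0.04 for H2-DMb1, -0.62 to 0.01 for Ciita and -0.01 to 0.11 for H2-Ob. None of these values was called. Without CHMP2Bintron5 replicates 2 and 3 at 6 months, or without the libraries over 30 CPM of Acta1 (an alternative chosen after seeing the data), none of the 8 was called in any comparison. Counts per library were 1 to 35 for H2-Oa and 4 to 132 for Ciita.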
